A study of Mus musculus with 8 samples.

Results

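mmu-miR-1a-3p, mmu-miR-133a-3p, mmu-miR-133b-3p and mmu-miR-206-3p, the classical miRNAs of striated muscle, were followed here in the hippocampus of individual mice, and were chosen by name. Of these 4, 3 had a row in the table of 422 miRNAs, and miR-133b-3p is not analysed here. Small RNA libraries came from adult male mice of 2 inbred strains at 12 weeks of age, 4 of C57BL/6J (B6, the control strain) and 4 of BTBR T+ Itpr3tf/J (BTBR, used to model idiopathic autism). Each library was made from the punched hippocampus of 1 mouse. The strains differ at many loci, so that a difference between them belongs to no single gene.

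miRNAs are short RNAs that guide Argonaute proteins to messenger RNAs, mainly through the seed at their 5′ end. In skeletal and cardiac muscle, miR-1 and miR-133 are transcribed together from paired hairpins under the control of myogenic transcription factors, miR-1 favouring differentiation and miR-133 proliferation of muscle precursors. miR-206, which shares its seed with miR-1, and miR-133b form a further pair that is largely restricted to skeletal muscle. In brain these miRNAs are found at far lower levels than in muscle. miR-143 and miR-145, which were taken as the context, are transcribed together and are known from smooth muscle cells and pericytes, the mural cells of blood vessels.

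The sequences of the pair miR-206 and miR-133b are shown because they carry the 2 seeds of the muscle miRNAs. Both were taken from RefSeq on GRCm38.p6, which held a mature sequence for 2 of the 4 names, and capitals mark the seed, bases 2 to 8 from the 5′ end.
miR-206-3p: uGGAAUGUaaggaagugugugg
miR-133b-3p: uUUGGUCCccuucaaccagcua
miR-206-3p covers bases 20679055 to 20679076 on the plus strand of chromosome 1, and miR-133b-3p bases 20682834 to 20682855. In the annotation of GRCm38 both hairpins lie in exons of the lincRNA Gm28653, with 3686 bases between them. The hairpins Mir1a-1 (chromosome 2, 180389048 to 180389124) and Mir133a-2 (180398379 to 180398482) lie on the plus strand outside other annotated genes, with 9254 bases between them. miR-1a-3p and miR-133a-3p also come from another pair of hairpins elsewhere in the genome, and a read of the mature miRNA does not show from which pair it came.

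The counts on miRNAs summed to 5078301 to 5792967 reads for B6 and 2247482 to 7904990 reads for BTBR libraries. BTBR replicate 2 had the lowest total and the lowest median Spearman correlation with the other libraries across miRNAs (0.938, against 0.953 to 0.972 for the rest). miR-9-5p, a miRNA of neural cells, lay between 31206 and 56859 CPM in all 8 libraries, where CPM is the counts-per-million value after TMM normalization. miR-124-3p, the leading neuronal miRNA, lay between 932 and 2195 CPM.

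miR-1a-3p was the most abundant of the muscle miRNAs, the 75th of 422 by mean CPM, and its strain difference was within the spread of the mice. The B6 mice had 705, 933, 563 and 666 CPM in replicates 1 to 4. The BTBR mice had 820, 673, 929 and 1151 CPM. The strains overlapped, since B6 replicate 2 was above 3 of the BTBR mice and BTBR replicate 2 was below B6 replicate 1. The mean was 717 ± 156 CPM for B6 and 893 ± 201 CPM for BTBR (SD, n = 4 each). The log2 fold change of BTBR over B6 was 0.32 ± 0.23 (standard error, as in all fold changes given so below), with an adjusted p = 0.655 in edgeR's quasi-likelihood test (Benjamini-Hochberg adjustment over the 422 miRNAs). The two-sided exact permutation test on log2(CPM + 0.5) over the 70 assignments of the mice gave p = 0.229, and the smallest p it can give is 0.0286. These values rest on 1500 to 9571 reads per library.

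**Figure D1:**
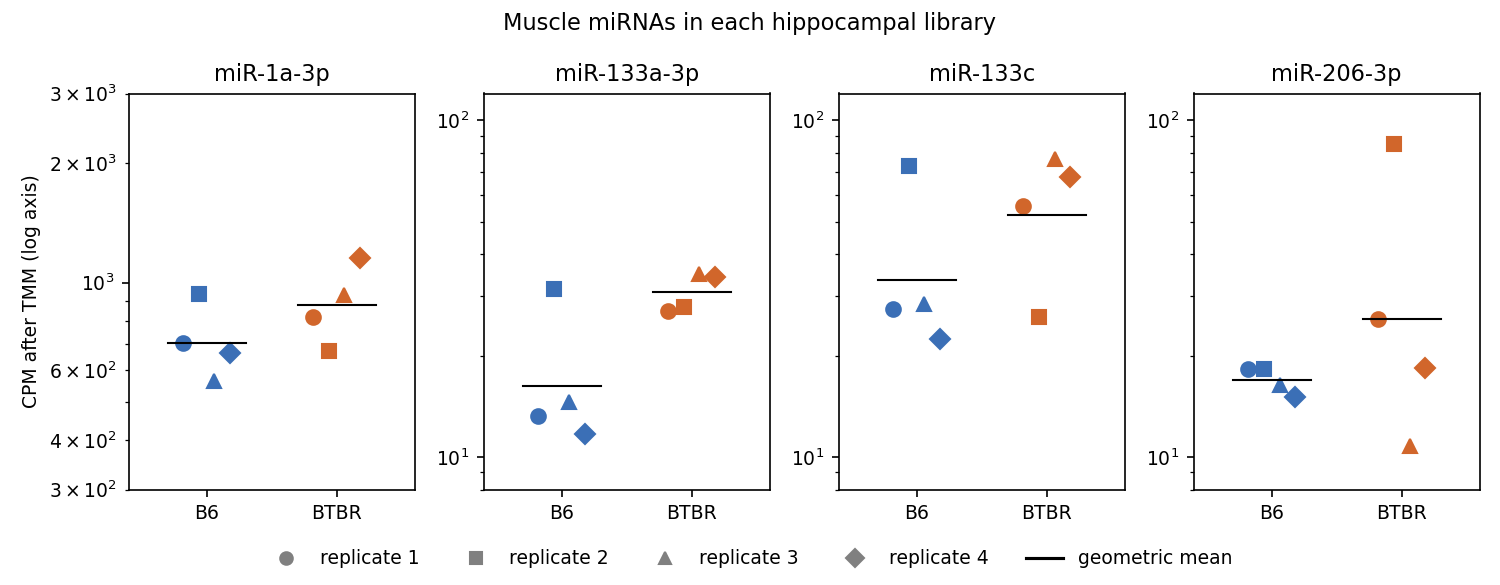
CPM after TMM normalization (log axes, with a higher range for miR-1a-3p) of miR-1a-3p, miR-133a-3p, its relative miR-133c and miR-206-3p in the 4 B6 and 4 BTBR libraries. Symbols are mice (shape gives the replicate) and lines geometric means, and B6 replicate 2 lies among the BTBR mice for miR-133a-3p, at 31.5 CPM, and BTBR replicate 2 stands alone for miR-206-3p, at 84.8 CPM.

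miR-133a-3p had a rank of 250 by mean CPM. In B6 mice it had 13.2, 31.5, 14.5 and 11.7 CPM in replicates 1 to 4, from 69, 188, 72 and 52 reads. In BTBR mice it had 27.1, 27.8, 35.1 and 34.2 CPM, from 132, 62, 140 and 284 reads. The 4 BTBR mice lay close together, above 3 of the B6 mice, while B6 replicate 2 lay within their range. The mean was 17.7 ± 9.22 CPM for B6 and 31.0 ± 4.14 CPM for BTBR (SD, n = 4 each). The log2 fold change was 0.81 ± 0.34 and did not pass the threshold of 0.1 that the study used (unadjusted p = 0.0381, adjusted p = 0.449 in edgeR's quasi-likelihood test). Without adjustment, 10.9% of the 422 miRNAs had a p under 0.05 in this test, and miR-133a-3p ranked 35th. The exact permutation test gave p = 0.0857. The call turned on 1 mouse: with B6 replicate 2 left out, miR-133a-3p passed at a log2 fold change of 1.27 (adjusted p = 0.0555) in edgeR's quasi-likelihood test. In that fit 13 of the 422 miRNAs passed, against 7 with all mice, and 62 had an unadjusted p under 0.05, against 46. B6 replicate 2 was the only B6 mouse within the BTBR range, so leaving it out fixed the separation of the rest in advance. The exact permutation test then gave p = 0.0286, the smallest it can give there.

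miR-133c, a relative of miR-133a-3p by name, was counted in a row of its own. Its hairpin in the annotation of GRCm38 lies on the minus strand of chromosome 2 (29475215 to 29475294), opposite an intron of Med27, which encodes a Mediator subunit. miRNAs of 1 family can share reads, and how reads were divided among miR-133a, miR-133b and miR-133c is not given in the sources used here, so that the row of miR-133a-3p may also hold reads of miR-133b-3p. The B6 mice had 27.4, 73.1, 28.5 and 22.5 CPM of it, and the BTBR mice 55.7, 26.0, 76.6 and 67.7 CPM. As for miR-133a-3p, B6 replicate 2 was the high B6 library, but BTBR replicate 2 lay with the low B6 libraries. The log2 fold change was 0.58 ± 0.42 (adjusted p = 0.661 in edgeR's quasi-likelihood test). Per read of miR-133a-3p there were between 1.92 and 2.32 reads of miR-133c in 7 libraries and 0.935 in BTBR replicate 2. There, miR-133a-3p made up 51.7% of the reads of both rows (62 of 120, exact Clopper-Pearson 95% interval 42.4% to 60.9%), against 30.1% to 34.2% in the other libraries. This interval, like all others given, covers counting error only, since the reads carry no molecular identifiers. Summed over both rows, the difference of the mean log2 level was 0.75 (exact permutation test, p = 0.143), an alternative chosen after seeing the data.

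The strain difference of miR-206-3p rested on 1 BTBR mouse. The B6 mice were close to each other after TMM, with 18.2, 18.2, 16.3 and 15.1 CPM from 95, 109, 81 and 67 reads. Before TMM they lay wider apart, at 16.4, 21.5, 14.3 and 13.1 CPM. The BTBR mice had 25.7, 84.8, 10.8 and 18.4 CPM after TMM, from 125, 189, 43 and 153 reads. Both the highest and the lowest of the 8 libraries were thus BTBR mice. BTBR replicate 2 held the most reads of miR-206-3p although its library was the smallest, and its 84.1 CPM before TMM (exact 95% interval 72.5 to 97.0) lay above the interval of every other library. The mean was 17.0 ± 1.55 CPM for B6 and 34.9 ± 33.8 CPM for BTBR (SD, n = 4 each). The log2 fold change was 1.02 ± 0.53 (adjusted p = 0.521 in edgeR's quasi-likelihood test), and the exact permutation test gave p = 0.429 for a difference of 0.59 between the mean log2 levels. With limma-voom the log2 fold change was 0.44. Without BTBR replicate 2 the log2 fold change dropped to 0.08. BTBR replicate 3, the lowest, was the only BTBR mouse below any B6 mouse, so leaving it out fixed the separation of the rest in advance. The exact permutation test then gave p = 0.0286, the smallest it can give there. The margin was small, with 18.41 CPM in BTBR replicate 4 against 18.23 CPM in B6 replicate 2. Before TMM the order of these 2 libraries was reversed, at 19.4 against 21.5 CPM. The log2 fold change without BTBR replicate 3 was 1.32, with an adjusted p of 0.401 in edgeR's quasi-likelihood test.

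**Figure D2:**
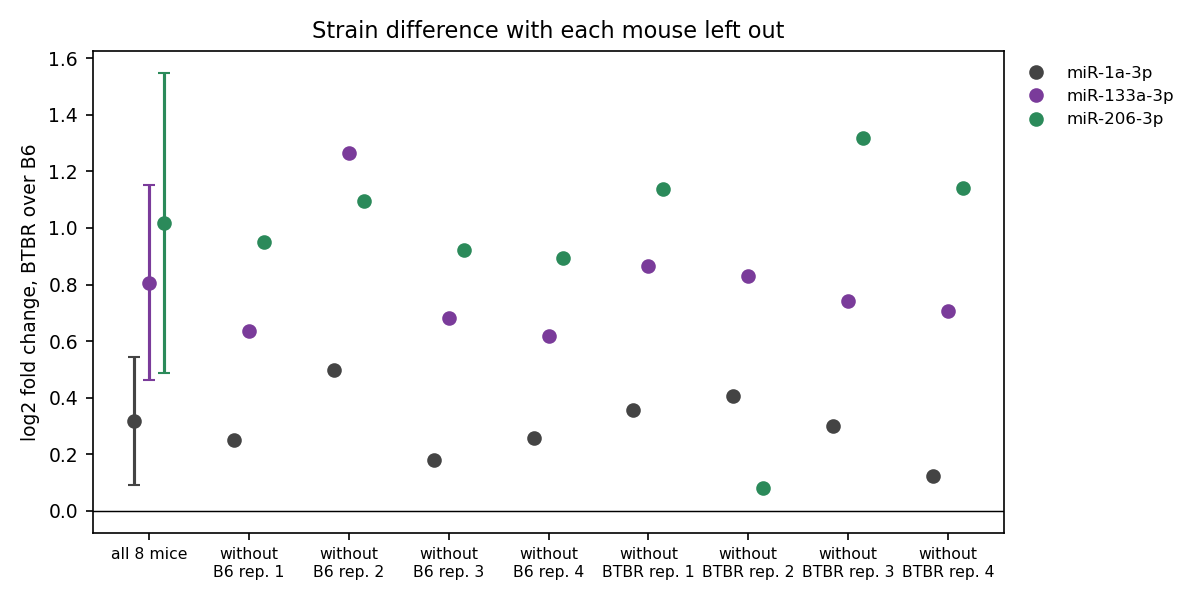
Log2 fold change of BTBR over B6 from edgeR's quasi-likelihood fit, with all 8 mice (bars, standard error) and with each mouse left out in turn. All values lie above 0, miR-133a-3p is highest without B6 replicate 2 (1.27), and miR-206-3p falls to 0.08 without BTBR replicate 2.

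Of the 3 muscle miRNAs, 0 passed the adjusted threshold in edgeR's quasi-likelihood test, as was the case with edgeR's exact test, DESeq2 and limma-voom, and 1 had an unadjusted p under 0.05. Over all 422 miRNAs 1.66% passed, 7 in number (1.18% with higher levels in BTBR mice), and with edgeR's exact test and limma-voom 3.79% and 1.42%. With DESeq2 5.65% passed, 21 of the 372 miRNAs to which it gave an adjusted p. The strains overlapped in all 3, whereas they did not overlap in 6.64% of all miRNAs. The log2 fold changes of the 3 were above 0, which was the case in 50.9% of all miRNAs, and their median was 0.81 against 0.02 over all. With counts scaled by library size only, the median of all miRNAs moved by 0.14 and the 3 fold changes were 0.44, 0.88 and 1.11.

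The mice of a strain differed unequally in these miRNAs. The SD of log2(CPM + 0.5) within strains was 0.31 for miR-1a-3p, and 301 of the 422 miRNAs had a larger one. It was 0.46 for miR-133a-3p, close to the median of all miRNAs (0.44). For miR-206-3p it was 0.88, and among the 50 miRNAs nearest to it in abundance only 5 had a larger one. In percent of the mean CPM after TMM, miR-206-3p varied least of the 3 in B6 mice (9.16%) and most in BTBR mice (96.9%).

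Ratios of counts within a library do not depend on its depth or scaling, and show whether the muscle miRNAs moved together. Per read of miR-133a-3p there were 53.2, 29.7, 38.8 and 57.0 reads of miR-1a-3p in the B6 mice and 30.2, 24.2, 26.5 and 33.7 in the BTBR mice. The BTBR mice lay in a narrow range that B6 replicate 2 shared, and the other B6 mice lay above it. The difference of the mean log2 ratio was −0.60 (exact permutation test, p = 0.0857, adjusted p = 0.257 over 3 ratios by Benjamini-Hochberg). With B6 replicate 2 left out it was −0.78 (exact permutation test, adjusted p = 0.0857). That is under 0.1, but leaving out the only B6 mouse within the BTBR range fixed the separation in advance, so nothing is concluded from it. miR-1a-3p and miR-206-3p, which carry the same seed, did not keep a fixed ratio. Per read of miR-206-3p there were 38.7, 51.2, 34.4 and 44.2 reads of miR-1a-3p in the B6 mice. In the BTBR mice there were 31.9, 7.94, 86.3 and 62.6, so that BTBR mice lay on both sides of all B6 mice. Put as a share, miR-206-3p made up 1.92% to 2.82% of the reads of this seed pair in B6 mice. In BTBR replicate 2 it made up 11.2% (exact 95% interval 9.73% to 12.8%) and in BTBR replicate 3 1.15% (0.831% to 1.54%). The mean log2 ratio differed by −0.29 between strains (exact permutation test, p = 0.857, adjusted p = 0.857). Without BTBR replicate 2 this difference turned to 0.42, and as a plain ratio without logarithm it was 5.04, so its direction is not determined. The ratio of miR-133a-3p to miR-206-3p was 0.726, 1.72, 0.889 and 0.776 in B6 mice and 1.06, 0.328, 3.26 and 1.86 in BTBR mice. Its log2 difference of 0.32 (exact permutation test, p = 0.686, adjusted p = 0.857) turned to −0.16 without BTBR replicate 3.

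**Figure D3:**
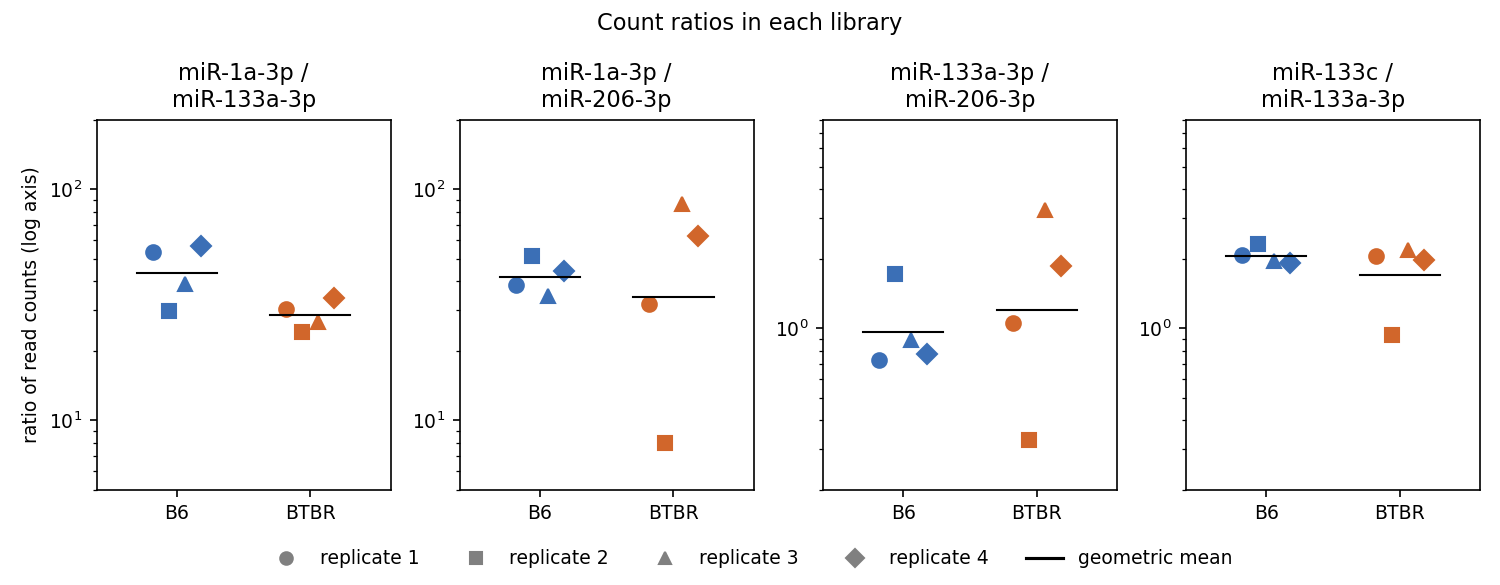
Ratios of read counts (log axes) between the muscle miRNAs, and of miR-133c to miR-133a-3p, in each library (symbols, shaped by replicate number) with their geometric means (lines). miR-1a-3p to miR-133a-3p runs from 24.2 to 57.0, while both ratios to miR-206-3p spread widely in BTBR mice, with replicate 2 lowest and replicate 3 highest.

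Across the 8 libraries, miR-1a-3p and miR-133a-3p had the highest correlation of the 3 pairs of muscle miRNAs. Pearson's r of log2(CPM + 0.5) was 0.777 (exact permutation test over all 40320 pairings, p = 0.0301) and Spearman's rho 0.762 (exact permutation test, p = 0.0368). Over the 3 pairs of muscle miRNAs the adjusted p was 0.0903 and 0.11. Without B6 replicates 1 and 4, the libraries farthest from the median of miR-133a-3p, r was 0.861 (exact permutation test, p = 0.0111), and with each strain centred on its mean r was 0.699. For miR-206-3p, r was −0.24 with miR-1a-3p and 0.17 with miR-133a-3p (exact permutation tests, p = 0.597 and 0.777, adjusted p = 0.777 for both). Spearman's rho was 0.214 and 0.119 (exact permutation tests, p = 0.619 and 0.793, adjusted p = 0.793 for both), and with each strain centred on its mean r was −0.52 and −0.16, so that neither pair kept a sign. Without BTBR replicates 2 and 3, r was 0.370 and 0.565 (exact permutation tests, p = 0.494 and 0.246).

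The mural miRNAs had strain differences within their spread, and of both only miR-143-3p was more abundant than miR-1a-3p. For miR-143-3p the B6 mice had 9938, 6946, 6229 and 5962 CPM and the BTBR mice 6646, 4791, 7560 and 6561 CPM (log2 fold change −0.19 ± 0.22). For miR-145a-5p the B6 mice had 229, 279, 205 and 178 CPM and the BTBR mice 296, 301, 147 and 261 CPM (log2 fold change 0.18 ± 0.26). Neither passed the threshold (adjusted p = 0.787 and 0.822 in edgeR's quasi-likelihood test). The ratio of miR-143-3p to miR-145a-5p ran from 15.9 in BTBR replicate 2 to 51.5 in BTBR replicate 3, with the B6 mice between 24.9 and 43.5.

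Of the 6 pairs of a muscle and a mural miRNA, miR-206-3p with miR-145a-5p covaried by rank over the 8 libraries. Ordered by miR-145a-5p, the libraries were nearly in the order of miR-206-3p, from BTBR replicate 3, which was lowest in both, to BTBR replicate 2, which was highest in both. Spearman's rho was 0.976 (exact permutation test, p = 0.000397, adjusted p = 0.00238 over the 6 pairs). Pearson's r was 0.708 (exact permutation test, p = 0.0398, adjusted p = 0.239), since BTBR replicate 2 lay far above the line of the others. Without that library r was 0.922, with an adjusted p of 0.00357 in the exact permutation test. Without BTBR replicate 3 and B6 replicate 4, the libraries farthest from the median of miR-145a-5p, rho was 0.943 and r 0.624 (exact permutation tests, p = 0.0167 and 0.163, adjusted p = 0.10 and 0.317), and neither passed the threshold of 0.1. With each strain centred on its mean, rho was 0.786 and did not pass (exact permutation test, adjusted p = 0.168). With counts scaled by library size only, rho was 0.881 (exact permutation test, adjusted p = 0.0435). Per read of miR-145a-5p there were 0.0798, 0.0654, 0.0798 and 0.0848 reads of miR-206-3p in the B6 mice. In the BTBR mice there were 0.0867, 0.282, 0.0734 and 0.0704. The ratio thus stayed in a narrow range in 7 of the 8 libraries, across both strains, and was above it in BTBR replicate 2.

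With miR-143-3p no such relation was found. Its r with miR-206-3p was −0.61 and its rho −0.31 (exact permutation tests, p = 0.155 and 0.462, adjusted p = 0.465 and 0.798), and r was −0.34 without B6 replicate 1 and BTBR replicate 2 (exact permutation test, p = 0.522). For miR-1a-3p, r was 0.208 with miR-143-3p and 0.139 with miR-145a-5p (exact permutation tests, p = 0.642 and 0.741, adjusted p = 0.741 for both), with rho of 0.50 and 0.190 (exact permutation tests, p = 0.216 and 0.665). For miR-133a-3p, r was −0.17 with miR-143-3p and 0.296 with miR-145a-5p (exact permutation tests, p = 0.660 and 0.474, adjusted p = 0.741 for both), with rho of 0.238 and 0.0952 (exact permutation tests, p = 0.582 and 0.840). Leaving out B6 replicate 1 and BTBR replicate 2, which are farthest from the median of miR-143-3p, raised r with miR-143-3p to 0.600 for miR-1a-3p and to 0.844 for miR-133a-3p (exact permutation tests, p = 0.211 and 0.0278, adjusted p = 0.317 and 0.167). Without B6 replicate 4 and BTBR replicate 3, r with miR-145a-5p was 0.466 and 0.814 (exact permutation tests, p = 0.356 and 0.0708, adjusted p = 0.427 and 0.2125). None of these passed 0.1 after adjustment. With BTBR replicate 3 alone left out, miR-133a-3p and miR-145a-5p had an r of 0.875, which passed 0.1 (exact permutation test, adjusted p = 0.0988), with a rho of 0.643 that did not (exact permutation test, adjusted p = 0.417). The values of these pairs thus moved with the libraries left out. All levels within a library share its total, so they are not independent of each other.

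**Figure D4:**
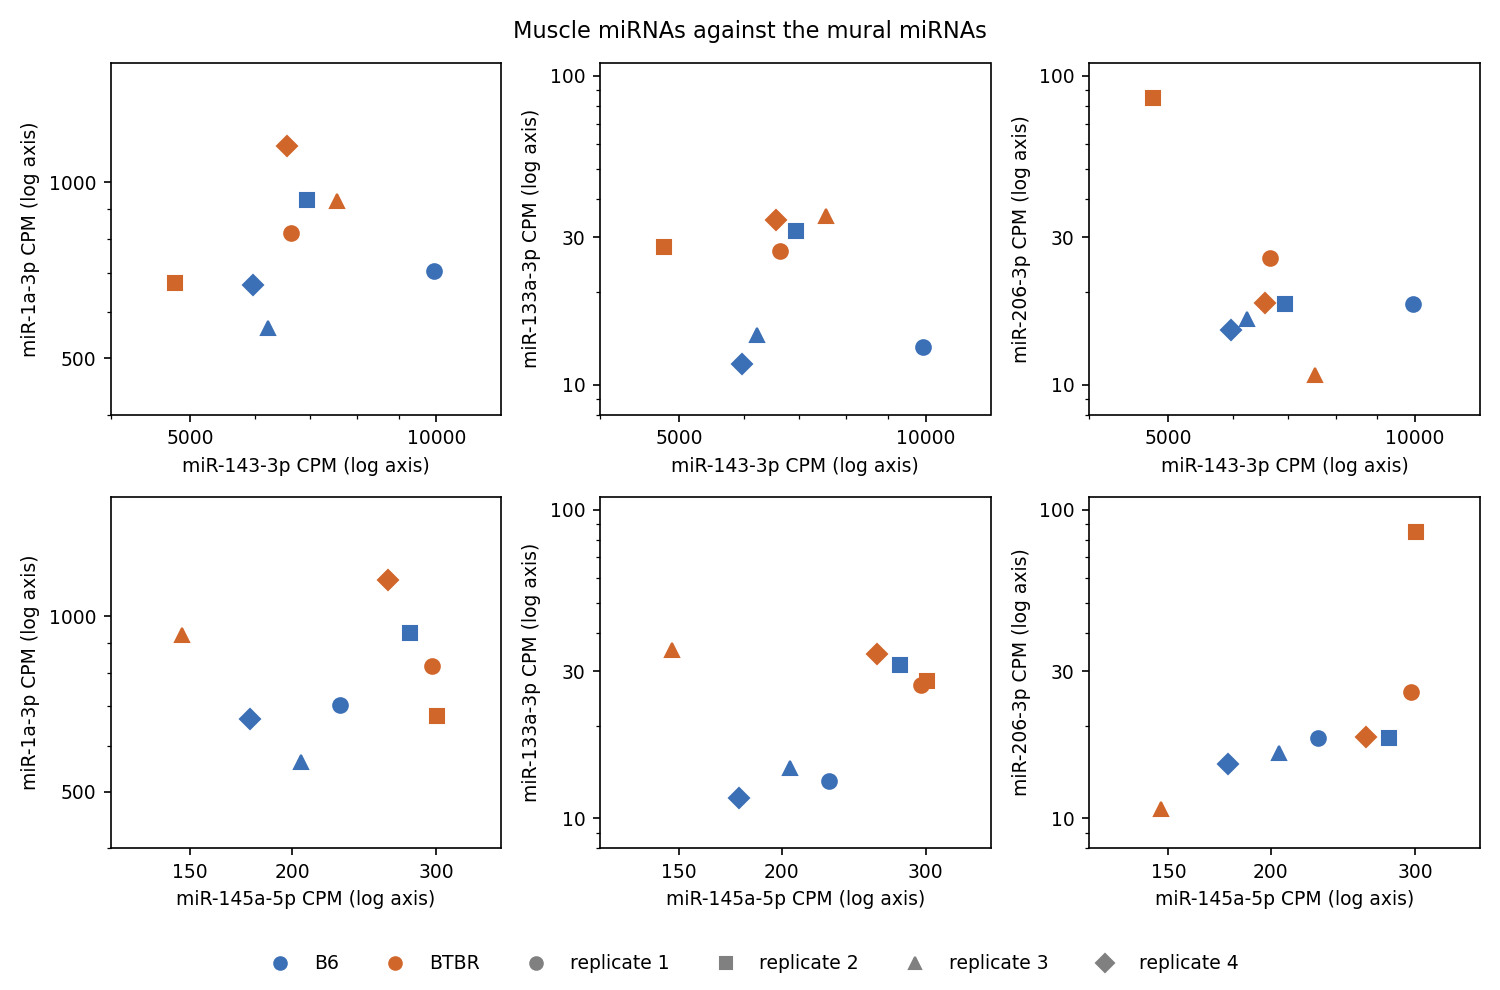
CPM of each muscle miRNA (vertical, log axes) against miR-143-3p (upper row) and miR-145a-5p (lower row) in the 8 libraries, coloured by strain, with the shape giving the replicate number. The libraries rise together for miR-206-3p and miR-145a-5p (rho 0.976), with BTBR replicate 2 above the rest at 84.8 CPM, and scatter in the other panels.

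The ratios to the mural miRNAs were compared between strains over 6 pairs, in tests that had not been planned. miR-133a-3p per read of miR-143-3p had the largest difference, 0.00133, 0.00453, 0.00233 and 0.00196 in B6 mice and 0.00408, 0.00581, 0.00464 and 0.00521 in BTBR mice. B6 replicate 2 again lay within the BTBR range, and the other B6 mice below it. The log2 difference was 1.09 (exact permutation test, p = 0.0571, adjusted p = 0.171 over 6 ratios). The other 5 ratios were also higher in BTBR mice on the log2 scale, by 0.17 to 0.78, with adjusted p from 0.171 to 0.657 in exact permutation tests. Both ratios of miR-206-3p rested on BTBR replicate 2. Without it, in an alternative chosen after seeing the data, the difference was 0.07 against miR-143-3p in place of 0.78 and turned to −0.01 against miR-145a-5p in place of 0.46. The difference of miR-1a-3p against miR-145a-5p, 0.17, turned to −0.09 without BTBR replicate 3. That of miR-133a-3p against miR-143-3p was 1.42 without B6 replicate 2 (exact permutation test, adjusted p = 0.0857), and that of miR-1a-3p against miR-143-3p was 0.64 (exact permutation test, adjusted p = 0.0857). In both ratios B6 replicate 2 was the only B6 mouse within the BTBR range, so leaving it out fixed the separation in advance.

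The miRNAs whose levels were most like those of each muscle miRNA were ranked by Pearson's r of log2(CPM + 0.5) over the 8 libraries among the 419 miRNAs that are not muscle members, as a description. For miR-1a-3p they were miR-410-3p (r = 0.902), miR-210-3p (0.891), the latter known as a hypoxia-responsive miRNA, and miR-133c (0.870). For miR-133a-3p they were miR-34a-5p (0.976), known as a target of p53, miR-1251-5p (0.892) and miR-300-3p (0.890), while miR-133c ranked 11th (0.838). Among B6 mice miR-34a-5p was also highest in replicate 2, with 588 CPM there and 106 to 213 CPM in the others, against 448 to 853 CPM in BTBR mice. For miR-206-3p they were miR-149-5p (0.964), miR-666-5p (0.958) and miR-1968-5p (0.909), all highest in BTBR replicate 2. miR-149-5p had 596 CPM there and 251 to 397 CPM in the other 7 libraries. miR-145a-5p ranked 39th for miR-206-3p, and miR-143-3p ranked 350th. Within strains, centred on their means, r of the leading miRNA was 0.882, 0.944 and 0.964 for the 3 muscle miRNAs in the same order.

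Of 6 further muscle miRNAs listed, 3 had a row, and 0 of them passed the threshold. miR-378a-3p and miR-378a-5p, the arms of a hairpin in the gene of the metabolic coactivator PGC-1β, had log2 fold changes of −0.41 and 0.28 (adjusted p = 0.597 and 0.787 in edgeR's quasi-likelihood test). miR-486a-5p, known from muscle and from red blood cells, had 367, 778, 258 and 264 CPM in B6 mice. In BTBR mice it had 411, 1212, 1244 and 941 CPM, so that its log2 fold change was 1.19 (adjusted p = 0.254 in the same test). Its high B6 library was again replicate 2. miR-499-5p, miR-208a-3p and miR-208b-3p, which are made from introns of myosin genes, are not analysed here.

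Levels of some, but not all, of the listed miRNAs known from other cell types moved with strain or with the libraries that stood apart. The part of these miRNAs in the results above was not tested. In hippocampal RNA, more cells of a type and more RNA per cell cannot be told apart. Of the 3 red blood cell miRNAs (miR-451a, miR-144-3p and miR-144-5p), 1 passed the threshold, miR-451a, and their summed level was 44.2 to 74.4 CPM in B6 and 120 to 159 CPM in BTBR mice. The highest B6 library in that sum was replicate 2, the library in which miR-133a-3p was high. The 2 endothelial miRNAs, the arms of miR-126a, summed to 2719 to 3365 CPM in B6 mice and 1740 to 3182 CPM in BTBR mice. BTBR replicate 2, where miR-206-3p was highest, was the lowest of all 8 in this sum and also in that of the mural miRNAs, at 5092 CPM against 6140 to 10167 CPM. That sum is mostly miR-143-3p, and miR-145a-5p was highest of all 8 in BTBR replicate 2, at 300.8 CPM. Of the endothelial and mural miRNAs, 0 of 4 passed. miR-199a-3p and miR-199b-3p, known from mesenchymal cells, had the same counts in each library and a log2 fold change of 0.46 (adjusted p = 0.713 in edgeR's quasi-likelihood test). The 3 choroid plexus miRNAs (miR-34c-5p, miR-204-5p and miR-448-3p) summed to 5080 to 36247 CPM in B6 and 4997 to 9325 CPM in BTBR mice, with 0 past the threshold. B6 replicate 1 was highest in this sum, followed by B6 replicate 2 at 15463 CPM, and BTBR replicate 2 was the highest BTBR library. The sum is mostly miR-204-5p, which had 7739 CPM in BTBR replicate 2. The other 2 went the other way there. miR-34c-5p was lowest of the BTBR mice at 1586 CPM, and miR-448-3p lowest of all 8 at 0.449 CPM, from 1 read. No miRNA of these lists was at 0 reads in any library.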

How the data were processed

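Hippocampal RNA was sequenced as 1 small RNA library per mouse, with 4 B6 and 4 BTBR mice assigned by their labels. The authors removed adapters, aligned reads to GRCm38 with sRNAbench, which runs Bowtie, counted reads lying within miRBase annotations, and deposited these counts as whole numbers without normalization. The methods give no step that removes duplicate molecules. Adapter ligation differs between miRNAs, so that levels of different miRNAs are relative, while a ratio can be compared between libraries.

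All 422 miRNAs were fitted with edgeR 4.0.16 in R 4.3.3 (TMM, quasi-likelihood test, no covariate, no filter), with Benjamini-Hochberg adjustment and the study's threshold of 0.1. Standard errors come from the fold change and its F statistic. Levels, ratios and correlations of single miRNAs were compared with exact permutation tests in Python 3.11.15, and p-values were adjusted within each family of ratios or correlations. Those of the levels were left unadjusted, although an adjustment over the members had been planned. Alternatives used DESeq2 1.42.0, limma 3.58.1, other normalizations, filters and pseudocounts, a replicate block, and each mouse left out. The steps were tested on simulated counts.

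The members and lists were chosen with earlier results of these data known, after the paper's table of the same counts had been read. Named miRNAs are the members, miR-133c, the mural miRNAs, the lists, and the 3 most similar miRNAs of each member, and miR-9-5p and miR-124-3p were added afterwards to check the tissue. miR-133a-3p and miR-206-3p rest on 43 to 284 reads per library.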

Additional observations from a re-analysis of the deposited data

Results flagged for a closer look

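Of 18 groups of 4 libraries tested for a library far from the others, 3 held one, where chance gives about 1 in 20 groups. The groups share libraries, and the first and second below share the same value of miR-133a-3p. miR-133a-3p in B6 replicate 2, at 31.5 CPM, stood apart from the other B6 mice, which had 11.7 to 14.5 CPM. The ratio of miR-133a-3p to miR-206-3p in the same library, at 1.72, stood apart from 0.726 to 0.889 in the other B6 mice. The ratio of miR-133c to miR-133a-3p in BTBR replicate 2, at 0.935, stood apart from 1.98 to 2.19 in the other BTBR mice. The groups do not cover every level and ratio given above, so the count depends on which were entered. Not counted are miR-133c in B6 replicate 2 (73.1 CPM, against 22.5 to 28.5) and 2 ratios in BTBR replicate 2. These are miR-206-3p to miR-145a-5p (0.282, against 0.0704 to 0.0867) and to miR-143-3p (0.0177, against 0.00142 to 0.00387).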

How the results depend on the processing

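The strain differences of the 3 muscle miRNAs kept their direction under all 18 alternatives, and 0 of 3 passed the threshold in 17 of them. Without B6 replicate 2 the number was 1, in a fit where 13 of all 422 miRNAs passed, against 7 with all mice. Over fits that each lack 1 mouse, the number of muscle miRNAs past the threshold ran from 0 to 1. The log2 fold changes ran from 0.12 to 0.50 for miR-1a-3p, from 0.62 to 1.27 for miR-133a-3p and from 0.08 to 1.32 for miR-206-3p. The mean log2 differences behind the exact tests then ran from 0.18 to 0.45, from 0.74 to 1.20 and from 0.027 to 1.0. For miR-206-3p, limma-voom gave a log2 fold change of 0.44. The log2 ratio differences ran from −0.78 to −0.47 for miR-1a-3p to miR-133a-3p, from −0.73 to 0.42 for miR-1a-3p to miR-206-3p, where the ratio without logarithm was higher in BTBR mice by 5.04, and from −0.16 to 0.94 for miR-133a-3p to miR-206-3p. For the ratios to miR-143-3p they ran from 0.33 to 0.64 for miR-1a-3p, from 0.83 to 1.42 for miR-133a-3p and from 0.07 to 1.28 for miR-206-3p. For those to miR-145a-5p they ran from −0.093 to 0.41, from 0.48 to 0.98 and from −0.011 to 0.66. Pearson's r with miR-143-3p ran from 0.05 to 0.56 for miR-1a-3p, from −0.38 to 0.32 for miR-133a-3p and from −0.85 to −0.05 for miR-206-3p. With miR-145a-5p it ran from 0.01 to 0.50, from 0.084 to 0.88 and from 0.63 to 0.92. The r of miR-133a-3p with miR-143-3p turned from −0.17 to 0.347 with library size only, to 0.0896 with strains centred, and to 0.844 without the 2 libraries farthest from the median. The cause was not tested. The replicate numbers only name the mice, as the deviations of same-numbered mice correlated between −0.15 and 0.05 across miRNAs. With the replicate block, the log2 fold changes were 0.32, 0.93 and 0.60 in the order above, 0 of 3 passed, and the block changed no call, while the number of all miRNAs called fell from 7 to 3.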
